A study of Mus musculus with 18 samples.

Results

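The miR-200 family was followed here as 7 mature microRNAs (miRNAs) in small RNA sequencing of mouse kidney. They were taken by name: every entry of the deposited count table named for miR-200a-3p, miR-200b-3p, miR-429-3p, miR-200c-3p, miR-141-3p, miR-200a-5p or miR-200b-5p was a member. Each name stood on 1 entry, which gave 7 of the 1184 named entries, and all 7 passed the filter on low counts in every comparison. The study compared kidneys of mice with diabetic nephropathy (DN), with and without germacrone, with kidneys of control mice. The treated group held 6 libraries of C57BL/KsJ DN mice that received germacrone, a sesquiterpene found in plants, at 10 mg/kg/day. The DN group held 6 libraries of C57BL/KsJ mice that received saline, and the control group held 6 libraries of C57BL/6J mice that received 0.9% saline. Both DN groups were of the other strain, so in comparisons with control, disease and strain cannot be told apart. The labels give no age or sex and no animal for any library. The p-values below therefore describe the spread among the libraries as deposited, part of which could be technical.

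The miR-200 family is transcribed from a pair of genomic clusters and is abundant in epithelia, where it helps to keep cells epithelial. Its 3p arms repress Zeb1 and Zeb2, transcription factors that switch off E-cadherin, and these factors in turn repress the miRNA clusters. In kidney, the family is known from tubular and collecting duct epithelium and from work on TGF-beta signalling, epithelial-mesenchymal transition and fibrosis.

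The 7 mature sequences are shown because the family divides by its seed, bases 2 to 8 from the 5′ end, which is the stretch that pairs with targets. They are RefSeq sequences, written 5′ to 3′ with the seed in capitals.
mmu-miR-200a-3p: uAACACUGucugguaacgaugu
mmu-miR-141-3p: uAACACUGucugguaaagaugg
mmu-miR-200b-3p: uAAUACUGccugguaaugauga
mmu-miR-200c-3p: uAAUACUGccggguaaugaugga
mmu-miR-429-3p: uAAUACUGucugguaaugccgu
mmu-miR-200a-5p: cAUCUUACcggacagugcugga
mmu-miR-200b-5p: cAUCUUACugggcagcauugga
The prefix mmu is left out from here on. The seed AACACUG occurred in 2 of the 1679 mature mouse miRNAs of the reference, miR-200a-3p and miR-141-3p. The seed AAUACUG occurred in 3, miR-200b-3p, miR-200c-3p and miR-429-3p, and the 5p arms shared AUCUUAC with no other mature miRNA. The seeds of the 3p arms differ by a single base, C4U from miR-200a-3p to miR-200b-3p, with positions counted from 1 at the 5′ end.

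Seed groups and genomic clusters cross each other. In the RefSeq annotation of build GRCm38.p6, all members lie on the minus strand. On chromosome 4, miR-200b-3p is at chr4:156055685-156055706, miR-200a-3p at chr4:156054911-156054932 and miR-429-3p at chr4:156053916-156053937, and their 3 hairpins span 1846 bases. The 5p arms of the same hairpins are at chr4:156055721-156055742 for miR-200b-5p and chr4:156054949-156054970 for miR-200a-5p. GENCODE M21 places these hairpins inside the gene Ttll10, in no exon of it, and inside the non-coding transcript Gm13648, where Mir429 lies within an exon and the others in no exon. On chromosome 6, miR-200c-3p is at chr6:124718324-124718346 and miR-141-3p at chr6:124717917-124717938, with 477 bases across both hairpins. Both lie inside the antisense transcript Gm15884, in no exon of it, and Mir141 partly overlaps an exon of the unclassified gene Gm29008. The sources used here do not name the build to which the authors aligned, so these positions describe the reference.

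Members that share a seed are close in sequence across the clusters. Over 22 aligned bases, miR-200a-3p and miR-141-3p were identical at 20, with the substitutions C17A and U22G and the same first 16 bases. The pair miR-200b-3p and miR-200c-3p was also identical at 20 of 22, with U11G and A22G. In the deposited counts, miR-200a-3p and miR-141-3p both carried a fractional value in 7 libraries and both a whole value in the other 11. Of miR-200b-3p, miR-200c-3p and miR-429-3p, exactly 2 were fractional in 14 libraries and none in 4, while both 5p arms were always whole. How many reads these members share was not tested, and their division between near-identical members is uncertain to that extent.

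Libraries held 3657879 to 5972069 counts in treated, 3645173 to 7239343 in DN and 3700672 to 6654035 in control kidneys. A group of 3 libraries stood apart and had the lowest sample weights in limma-voom, at 0.0851 for DN 2, 0.199 for DN 3 and 0.241 for control 2, so results are also given without them. Leukocyte markers, a list of 6 tested entries, summed to 23150 CPM (counts scaled to a common library size, with TMM factors) in DN 2, against 1345 to 1906 CPM in the other DN libraries. Renal tubule miRNAs, a list of 8 tested miRNAs, had a sum of 46811 CPM in DN 2, whereas the other DN libraries had 96874 to 173533 CPM. In bulk RNA, fewer cells of a type and less RNA per cell cannot be told apart.

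The family made up a major part of the kidney miRNA counts. Its 7 members took 4.61% ± 0.419 of named counts in treated, 3.90% ± 1.02 in DN and 4.03% ± 0.373 in control libraries (SD, n = 6 each). The lowest share was 2.15% in DN 2 and the highest 5.26% in treated 4. Within the family, miR-200a-3p made up 51.9% ± 7.73 of the summed CPM and miR-200b-3p 35.8% ± 6.57 over the 18 libraries. The others followed with 7.20% for miR-429-3p, 3.80% for miR-200c-3p, 0.608% for miR-141-3p, 0.438% for miR-200b-5p and 0.324% for miR-200a-5p. The arms are 22 or 23 bases long, so CPM values were compared without a length correction. Whether different miRNAs were recovered equally in the libraries was not tested. Levels of different members, clusters and arms are therefore compared as counts, which need not equal their amounts in the kidney.

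Among mouse miRNA entries, miR-200a-3p ranked 7 to 22 by level in a library and miR-200b-3p 16 to 30. The ranks of miR-429-3p were 39 to 72 and those of miR-200c-3p 48 to 82. The order of these neighbours was not fixed: miR-200c-3p exceeded miR-429-3p in DN 3 and control 2, where the log2 ratio of miR-429-3p over miR-200c-3p was -0.43 and -0.73. The rarer members overlapped, with ranks of 104 to 198 for miR-141-3p, 138 to 196 for miR-200b-5p and 157 to 219 for miR-200a-5p.

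The level of miR-200a-3p, the most abundant member, was 22290 CPM at the lowest, 27818.5 at the median and 34382 at the highest in treated libraries. In DN libraries it was 9155, 23453 and 28599 CPM, and in control libraries 11616, 17609 and 26162 CPM. Treated libraries lay high and close together, all above the control median, while DN 2, DN 3 and control 2 were the lowest of the 18 libraries. The groups overlapped.

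The clustered neighbour miR-200b-3p varied less. Its lowest, median and highest levels were 14381, 16424 and 17935 CPM in treated, 6302, 14976 and 16090 CPM in DN, and 12915, 14506 and 16660 CPM in control libraries. A single library, DN 2, set the low end, and the next lowest DN library was at 14273 CPM. The highest control value belonged to control 2, the library with the lowest miR-200a-3p of its group.

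The third 3p arm of that cluster, miR-429-3p, shares its seed with miR-200b-3p. It stood at 2801, 3835 and 4251 CPM (lowest, median, highest) in treated, 1189, 3299 and 4156 CPM in DN, and 1539, 2759 and 3627 CPM in control libraries. Again DN 2, control 2 and DN 3 were the 3 lowest libraries.

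In the chromosome 6 cluster, miR-200c-3p had 1137 (treated 6), 1435 and 2029 CPM at the lowest, median and highest in treated libraries. In DN libraries it had 994, 1190 and 2555 CPM, and in control libraries 954, 1546 and 2552 CPM. The highest DN and control values were those of DN 3 and control 2, so these libraries were high here and low for miR-200a-3p and miR-429-3p.

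Its cluster partner miR-141-3p had 174, 390 and 452 CPM in treated, 88.9, 229 and 376 CPM in DN, and 123, 198 and 274 CPM in control libraries. Of the treated libraries, 5 of 6 were above every control library, and treated 6 at 174 CPM lay within the control range. The lowest DN and control values were again DN 3 and control 2, the reverse of their place for miR-200c-3p.

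The 5p arms were rare and varied little apart from DN 2. For miR-200a-5p, levels were 131 to 152 CPM in treated, 56.8 to 154 CPM in DN and 116 to 148 CPM in control libraries, with medians of 146 CPM in treated, 131 CPM in DN and 139 CPM in control. For miR-200b-5p, they were 161 to 207 CPM in treated, 82.2 to 208 CPM in DN and 140 to 237 CPM in control libraries. Over all 18 libraries, the SD of log2 CPM was 0.32 for miR-200a-5p, 0.34 for miR-200b-5p, 0.33 for miR-200b-3p, 0.56 for miR-200a-3p and 0.67 for miR-141-3p. Over the 15 libraries other than control 2, DN 2 and DN 3, it was 0.11 for miR-200a-5p, 0.19 for miR-200b-5p, 0.14 for miR-200b-3p, 0.35 for miR-200a-3p and 0.52 for miR-141-3p.

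**Figure D1:**
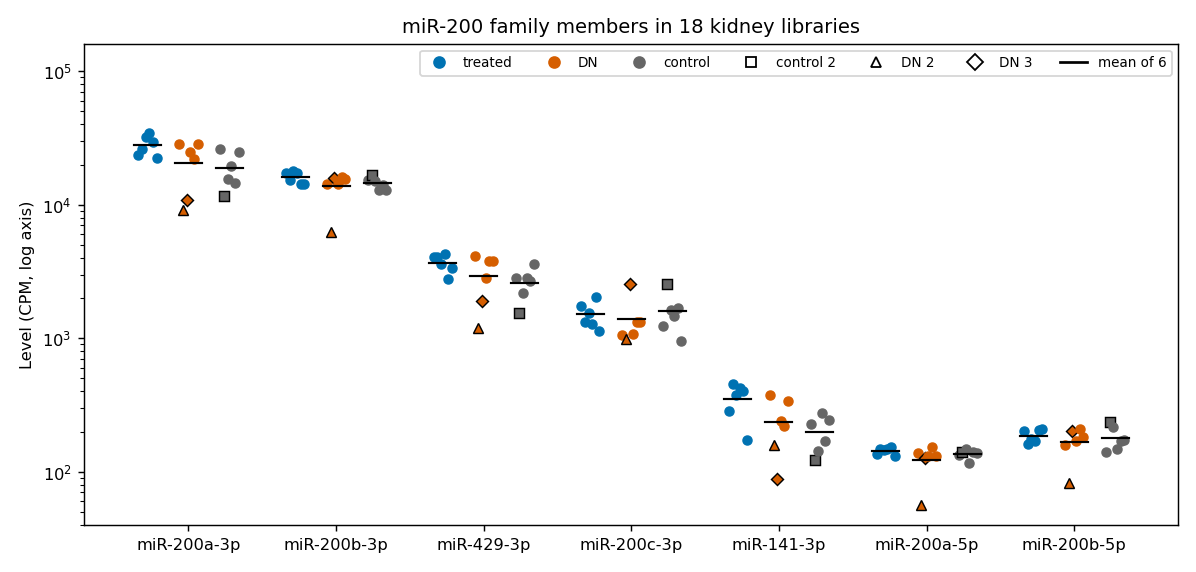
Levels of the 7 members in each library (CPM, log axis), with treated left of DN and control; each point is a library and each bar the mean of 6. Black outlines mark control 2, DN 2 and DN 3, which lie at the bottom for miR-200a-3p and miR-429-3p, while DN 3 and control 2 lie at the top for miR-200c-3p at 2555 and 2552 CPM.

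Untreated DN kidneys showed no member past the threshold against control kidneys. The call rule was an adjusted p under 0.05 in edgeR's quasi-likelihood test with Benjamini-Hochberg adjustment over 619 entries, which called 0% of all entries and 0 of the 7 members. The log2 fold change was 0.14 ± 0.267 (SE) for miR-200a-3p, whose mean was 20642 ± 8581 CPM in DN and 18741 ± 5843 CPM in control (SD, n = 6 each). It was 0.27 ± 0.313 for miR-141-3p, at 237 ± 108 CPM in DN and 197 ± 60.4 CPM in control, and 0.17 ± 0.259 for miR-429-3p. The other members had values below 0, namely -0.20 ± 0.255 for miR-200c-3p, -0.15 ± 0.190 for miR-200a-5p, -0.11 ± 0.207 for miR-200b-5p and -0.075 ± 0.176 for miR-200b-3p. Adjusted p from edgeR lay between 0.869 and 0.947 for the 7 members. At an unadjusted p under 0.05, 47 entries passed in edgeR, of which 32, or 5.17% of those tested, were higher in DN, and no member was among the 47.

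Of the family, 3 of 7 members had a log2 fold change above 0 in DN, with a median of -0.075, while 56.5% of all tested entries were above 0, with a median of 0.075. Without control 2, DN 2 and DN 3, which changes the spread of the whole table, the values were 0.35 for miR-200a-3p (adjusted p 0.230 in edgeR), 0.34 for miR-429-3p (0.210) and 0.46 for miR-141-3p (0.290), and miR-200c-3p stayed below 0 at -0.26.

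Germacrone-treated DN kidneys were compared with untreated DN kidneys, a comparison within 1 strain. The untreated DN mice received saline and no vehicle is given here for germacrone, so compound and vehicle cannot be told apart. No member passed, and 0% of all entries were called. All 7 members had log2 fold changes above 0 with TMM factors, and 6 of 7 with library size as the only scaling, where miR-200c-3p was at -0.019. The family median was 0.23 with TMM factors, whereas 42.2% of all entries were above 0, with a median of -0.054. The largest was 0.58 ± 0.313 (SE) for miR-141-3p, with 353 ± 104 CPM in treated and 237 ± 108 CPM in DN libraries (SD, n = 6 each) and an adjusted p of 0.800 in edgeR. For miR-200a-3p it was 0.44 ± 0.267, with 28027 ± 4779 CPM in treated and 20642 ± 8581 CPM in DN libraries.

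The remaining values against DN were smaller. They were 0.33 ± 0.259 for miR-429-3p, 0.23 ± 0.176 for miR-200b-3p, 0.22 ± 0.190 for miR-200a-5p, 0.16 ± 0.207 for miR-200b-5p and 0.13 ± 0.255 for miR-200c-3p. The 95% interval for miR-200b-3p, -0.14 to 0.60, and that for miR-200a-3p, -0.12 to 0.9996, leave room for differences in either direction. By unadjusted p under 0.05, 23 entries passed in edgeR, of which 5, or 0.808% of those tested, were higher in treated kidneys, and none of the 23 was a member.

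The libraries that stood apart weighed on this comparison. Without control 2, DN 2 and DN 3, miR-200a-3p had a log2 fold change of 0.10 against DN, miR-429-3p 0.014, miR-200b-3p 0.093 and miR-141-3p 0.25. The largest value in that fit was 0.34 for miR-200c-3p, and the adjusted p in edgeR was 0.954 to 0.997 over the members. With DN 2 alone left out, the value was 0.27 for miR-200a-3p, 0.15 for miR-429-3p, 0.048 for miR-200b-3p and 0.042 for miR-200a-5p. It was below 0 for miR-200c-3p at -0.017 and for miR-200b-5p at -0.018. In DN 2, the low family level came with the leukocyte and tubule marker sums given above, and the part of these in the result was not tested.

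Against control kidneys, treated kidneys showed the largest differences of the family, still short of the threshold. The mean of miR-141-3p was 353 ± 104 CPM in treated and 197 ± 60.4 CPM in control libraries (SD, n = 6 each), a log2 fold change of 0.84 ± 0.313 (SE), or 1.79-fold, with a 95% interval of 0.19 to 1.496. Its unadjusted p was 0.0150 and its adjusted p 0.186 in edgeR, and 5 of 6 treated libraries were above the control median. For miR-200a-3p the means were 28027 ± 4779 CPM in treated and 18741 ± 5843 CPM in control libraries, a log2 fold change of 0.58 ± 0.267 with a 95% interval of 0.022 to 1.14. Its adjusted p in edgeR was 0.251, its unadjusted p 0.0430, and all 6 treated libraries were above the control median.

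Together with miR-429-3p these members formed the higher end of the family. Its means were 3693 ± 552 CPM in treated and 2615 ± 705 CPM in control libraries, a log2 fold change of 0.50 ± 0.259 with an adjusted p of 0.298 in edgeR, and again 6 of 6 treated libraries lay above the control median. The rest of the family was close to 0, with 0.16 ± 0.176 for miR-200b-3p, 0.075 ± 0.190 for miR-200a-5p, 0.050 ± 0.207 for miR-200b-5p and -0.071 ± 0.255 for miR-200c-3p. The threshold called 0% of all entries and 0 members. At an unadjusted p under 0.05, 121 entries passed in edgeR, of which 66, or 10.7% of those tested, were higher in treated kidneys, and 2 members were among these 66.

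The call of these members depended on the tool. In limma-voom with sample weights, which gave low weight to the 3 libraries that stood apart, 63 entries, or 10.2%, were called higher in treated than in control kidneys, and 43 lower. The family members among the 63 were miR-200a-3p (0.59, adjusted p 0.0322), miR-141-3p (0.81, adjusted p 0.0322) and miR-429-3p (0.50, adjusted p 0.0373). In edgeR without control 2, DN 2 and DN 3, miR-141-3p had 0.72 with an adjusted p of 0.0672, miR-200a-3p 0.45 with 0.0731 and miR-429-3p 0.36 with 0.118. No member was called by edgeR in any fit that was run.

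Scaling moved the whole table. With library size as the only scaling, the median over all entries in treated against control was -0.20, and it was -0.0035 with TMM factors. The family median was -0.056 with library size only, with 3 of 7 members above 0, and 0.16 with TMM factors, with 6 of 7 above 0. In treated against DN, library size only gave a median of -0.19 over all entries and of 0.12 over the family.

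**Figure D2:**
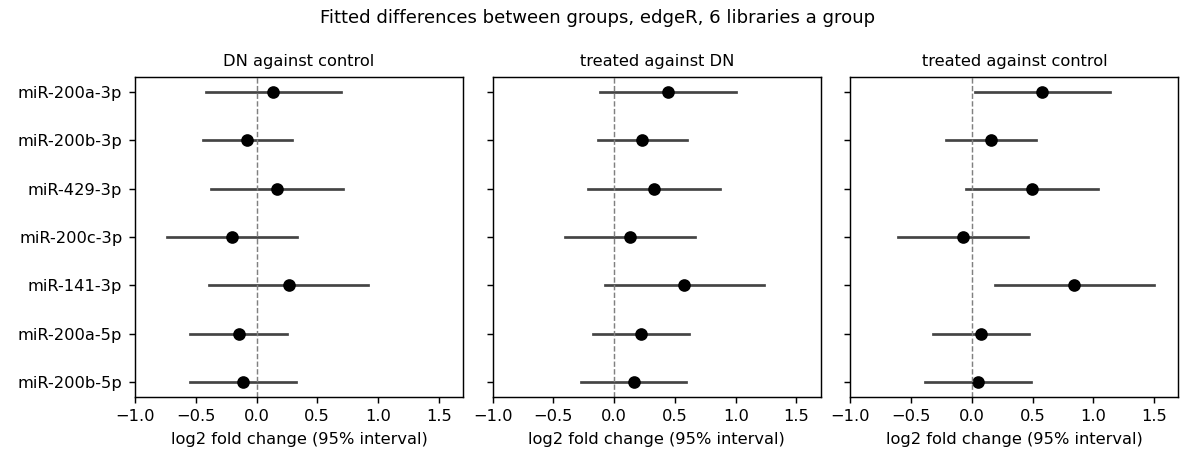
Log2 fold changes of the members from edgeR (points) with 95% intervals (lines) for DN against control, treated against DN and treated against control, 6 libraries in each group. Only miR-200a-3p and miR-141-3p in treated against control have intervals that leave out 0, at 0.022 to 1.14 and 0.19 to 1.496, and neither passed after adjustment.

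The clusters differed far more in level than the groups did. Summed over 3p arms, the chromosome 4 cluster stood at 47891 ± 5928 CPM in treated, 37345 ± 12219 CPM in DN and 35851 ± 5860 CPM in control libraries (SD, n = 6 each). The chromosome 6 cluster stood at 1866 ± 373 CPM in treated, 1621 ± 531 CPM in DN and 1787 ± 499 CPM in control libraries. The chromosome 4 cluster exceeded the other by 24.2-fold on average over the 18 libraries, with a range of 10.9-fold in DN 3 to 34.5-fold in control 6. No library came near equal levels.

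As a share of all 3p members, miR-200c-3p and miR-141-3p together made up 3.77% ± 0.749 in treated, 4.62% ± 2.28 in DN and 4.95% ± 1.95 in control libraries (SD, n = 6 each). The highest shares were 8.41% in DN 3 and 8.23% in control 2, and the lowest was 2.81% in control 6. The log2 ratio of the chromosome 6 cluster over the chromosome 4 cluster averaged -4.70 ± 0.290 in treated, -4.49 ± 0.674 in DN and -4.36 ± 0.594 in control libraries. The difference was -0.14 for DN minus control, -0.20 for treated minus DN and -0.34 for treated minus control. Each was smaller than the SD of its control or DN group, and the ranges overlapped. The -0.34 for treated minus control was larger than the treated SD of 0.290. These SDs describe single libraries and not the uncertainty of a difference between means. The sums weigh abundant members most, so the chromosome 6 side is mainly miR-200c-3p. For miR-141-3p the order was the reverse. The log2 ratio of miR-200a-3p over miR-141-3p averaged 6.36 in treated, 6.46 in DN and 6.57 in control libraries. Those of miR-200b-3p and miR-429-3p over miR-141-3p were also lowest in treated and highest in control libraries.

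These small shifts changed with single libraries. Without DN 3 the difference of treated minus DN was 0.0060, and without control 2 that of DN minus control was 0.037 and that of treated minus control -0.17. With control 2, DN 2 and DN 3 all left out, the differences were -0.39 for DN minus control, 0.22 for treated minus DN and -0.17 for treated minus control. Using the median over libraries in place of the mean gave -0.53 for DN minus control, 0.068 for treated minus DN and -0.47 for treated minus control.

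Members of a cluster did not vary as a unit. The constancy of a pair was measured by the SD of its log2 ratio over 18 libraries, a description that shares library and depth between the members. Of 21 pairs, the least constant was miR-200c-3p with miR-141-3p, the partners in the chromosome 6 cluster, at 0.92. Their log2 ratio averaged 2.14 ± 0.498 in treated, 2.61 ± 1.17 in DN and 3.01 ± 0.891 in control libraries. It reached 4.84 in DN 3 and 4.37 in control 2, and without the 3 libraries that stood apart the SD was 0.59, below that of miR-141-3p with miR-200b-5p at 0.61.

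Seed did not order the pairs either. The seed partners miR-200a-3p and miR-141-3p, on different chromosomes, had an SD of 0.33, and miR-200b-3p with miR-200c-3p 0.41. The seed partners miR-429-3p and miR-200c-3p, however, were among the least constant at 0.78. On chromosome 4, the SD was 0.26 for miR-200a-3p with miR-429-3p, 0.48 for miR-200a-3p with miR-200b-3p and 0.43 for miR-200b-3p with miR-429-3p. These differences rested on control 2, DN 2 and DN 3, without which the SDs of the same pairs were 0.27, 0.31 and 0.26. The most constant pair joined a 3p and a 5p arm of neighbouring hairpins, miR-200b-3p and miR-200a-5p, at 0.14, followed by the 5p arms with each other at 0.20 and miR-200b-3p with its own 5p arm at 0.21. Without the 3 libraries these SDs were 0.14, 0.17 and 0.21.

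**Figure D3:**
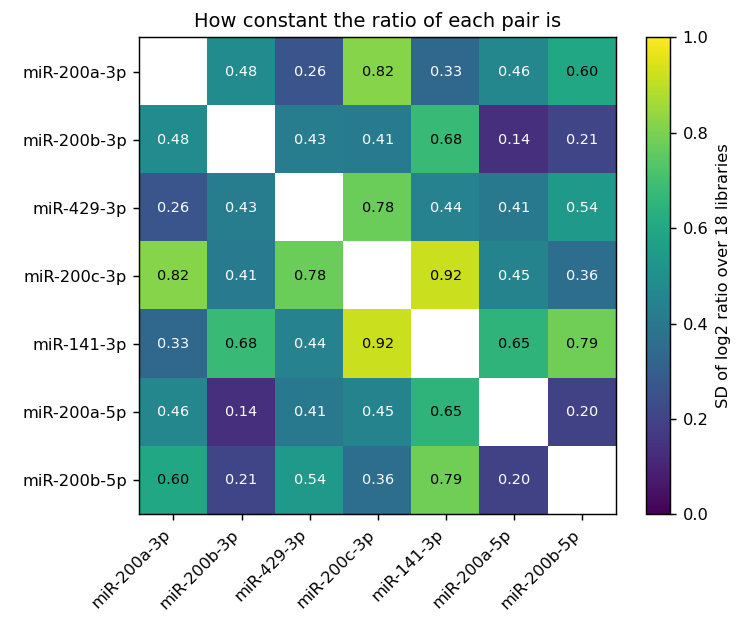
SD of the log2 ratio of each pair of members over 18 libraries, from 0 (constant ratio) to 1. The darkest cell is miR-200b-3p with miR-200a-5p (0.14) and the brightest is miR-200c-3p with miR-141-3p (0.92).

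The ratio between the most abundant members, miR-200a-3p over miR-200b-3p, does not depend on library scaling. On the log2 scale it averaged 0.78 ± 0.219 in treated, 0.52 ± 0.560 in DN and 0.32 ± 0.547 in control libraries (SD, n = 6 each), with overlap between all groups. It was below 0 in DN 3 at -0.55 and in control 2 at -0.52, and close to 0 in control 3 at 0.063 and control 5 at 0.059. In 16 of 18 libraries miR-200a-3p exceeded miR-200b-3p, with the highest ratio, 1.03, in treated 5. Summed by seed, the log2 ratio of the AAUACUG members over the AACACUG members was -0.40 ± 0.224 in treated, -0.14 ± 0.541 in DN and 0.039 ± 0.515 in control libraries, and it was 0.89 in DN 3 and 0.82 in control 2.

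**Figure D4:**
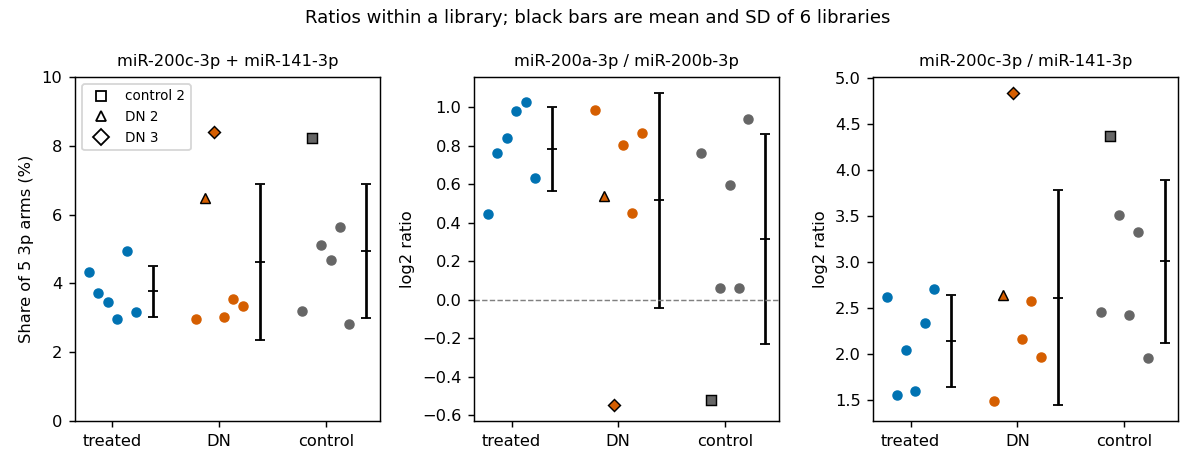
Ratios within each library: the share of miR-200c-3p plus miR-141-3p among all 3p members (percent), and the log2 ratios of miR-200a-3p over miR-200b-3p and of miR-200c-3p over miR-141-3p, for treated, DN and control; points are libraries and black bars the mean and SD of 6. Control 2 and DN 3 sit at the extreme of all 3 panels, with -0.52 and -0.55 in the middle panel.

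A property of whole libraries was highest where this ratio was lowest. For each library, each miRNA's deviation in log2 CPM from its median over the 18 libraries was correlated with its GC content. GC content was taken from the mature sequence. A positive correlation means that miRNAs richer in GC tended to lie above their medians in that library. Included were 271 mouse miRNAs outside the family with a RefSeq sequence (84.4% of the 321 at 10 CPM or more). This Spearman coefficient is across miRNAs, which are not independent, and was computed after the values were seen. It was highest in control 2 at 0.69, DN 3 at 0.58, control 3 at 0.54 and control 5 at 0.35, which were the 4 libraries with the lowest ratios of miR-200a-3p over miR-200b-3p. It was next highest in treated 5 at 0.29, the library with the highest ratio. By group, the median was -0.35 in treated, -0.13 in DN and 0.18 in control libraries. The mature sequence of miR-200a-3p is 40.9% GC and that of miR-200b-3p 36.4%. In the 4 libraries with the highest coefficients, the ratio of the member richer in GC over the other was thus lowest. The part of GC content in this ratio was not tested. The sequences of miR-429-3p and miR-141-3p are also 40.9% GC, and both miRNAs were low in control 2 and DN 3. That of miR-200c-3p is 43.5% GC, and miR-200c-3p was high in control 2 and DN 3.

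With this coefficient added to the edgeR fit as a covariate, the log2 fold change in treated against control kidneys was 0.25 for miR-200a-3p, 0.44 for miR-141-3p, 0.11 for miR-429-3p and 0.32 for miR-200c-3p. In DN against control kidneys, it was -0.12 for miR-200a-3p, -0.099 for miR-429-3p, -0.056 for miR-141-3p and 0.0071 for miR-200c-3p. In treated against DN kidneys, the values of miR-200a-3p, miR-429-3p and miR-141-3p stayed above 0 with the covariate, and none was called. The coefficient differs between the groups, so its part and that of the group cannot be told apart in these fits.

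**Figure D5:**
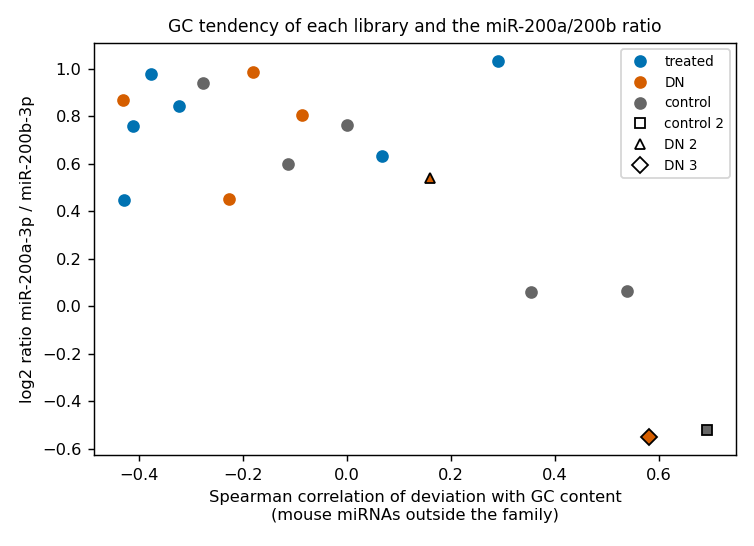
Log2 ratio of miR-200a-3p over miR-200b-3p in each library against the Spearman coefficient between the deviation of miRNA levels and GC content over 271 miRNAs outside the family. Control 2 and DN 3 lie at the lower right with ratios of -0.52 and -0.55, and treated 5 lies at the top with a coefficient of 0.29.

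Both 3p arms of the chromosome 4 hairpins that have a measured 5p arm far exceeded it. The 3p arm of miR-200a was 195 ± 27.2 times its 5p arm in treated, 167 ± 48.2 times in DN and 140 ± 47.8 times in control libraries (SD, n = 6 each), from 82.3 in control 2 to 234 in treated 4. For miR-200b the ratio was 87.9 ± 15.4 in treated, 82.2 ± 5.35 in DN and 82.6 ± 15.5 in control libraries, from 68.9 in control 3 to 111 in control 1. The groups overlapped for both hairpins. In the chromosome 6 cluster, the 5p arm of miR-141 averaged 4.34 CPM in treated, 3.89 CPM in DN and 3.93 CPM in control libraries. The 5p arm of miR-200c had no count in 4 treated, 6 DN and 6 control libraries.

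Other epithelial miRNAs, a list of 7 tested miRNAs, had no member past the threshold in edgeR on all libraries. In treated against DN kidneys 6 of 7 had values above 0 (median 0.24), in treated against control 5 of 7 (0.24) and in DN against control 4 of 7 (0.038). Without DN 2, the count in DN against control was 2 of 7, with a median of -0.27. In treated against DN it stayed at 6 of 7, with a median of 0.60. The smallest unadjusted p in treated against control belonged to miR-375-3p, an epithelial and endocrine miRNA. Its log2 fold change was 0.60 ± 0.199 (SE) with an adjusted p of 0.173 in edgeR. Without control 2, DN 2 and DN 3 it was 0.57 with an adjusted p of 0.0483 in edgeR. Fits with libraries left out also called entries outside these lists, and all their calls are counted below. Next by unadjusted p on all libraries was miR-182-5p, of the sensory and epithelial miR-183 cluster, at 0.51. In the other direction, miR-205-5p, a squamous and urothelial miRNA, had -2.07 ± 1.28 in DN against control. It had -1.17 ± 1.28 in treated against control, but 0.90 ± 1.29 in treated against DN. The list summed to 4268 CPM in control 4 and to 1733 to 2703 CPM in the other control libraries. The values of miR-31-5p, chosen after they were seen, were -0.54 in treated against DN and -0.43 in treated against control. Without DN 2, miR-31-5p had 0.60 in treated against DN and -0.42 in treated against control.

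In the lists below, entries that repeat the values of another entry of the same name were counted once. Of 8 renal tubule miRNAs, 6 had values above 0 in DN against control, 5 in treated against DN and 6 in treated against control, and none passed in edgeR on all libraries. Without DN 2, the counts were 8 in DN against control and 2 in treated against DN. In DN against control, miR-204-5p, an epithelial miRNA of the tubule, had a log2 fold change of 1.02 ± 0.226 (SE) with an adjusted p of 0.0806, and without DN 2 of 1.17 with an adjusted p of 0.0187 in edgeR.

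Of 8 mesenchymal and fibrosis miRNAs, 6 were above 0 in DN against control, 3 in treated against DN and 5 in treated against control, and none passed on all libraries. Without DN 2, 7 of 8 were above 0 in treated against DN, with a median of 0.24 in place of -0.068. The fibrosis-associated miR-21a-5p had 1.30 ± 0.400 in DN against control (adjusted p 0.277 in edgeR) and 1.19 ± 0.400 in treated against control (adjusted p 0.173). Without control 2, DN 2 and DN 3, miR-21a-5p in treated against control had 1.01 with an adjusted p of 0.0302 in edgeR. In that fit, miR-214-3p was called lower in DN against control, at -0.86 with an adjusted p of 0.0349 in edgeR. On all libraries, miR-214-3p had 0.39 in DN against control and -0.88 ± 0.467 in treated against DN. Counts of all entries called in fits with libraries left out are given below. In the miR-29 family, which represses collagens, all 3 tested miRNAs were above 0 in treated against DN, with a median of 0.19, and 1 of 3 without control 2, DN 2 and DN 3.

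Marker lists of other cell types gave no call in edgeR on all libraries. Without DN 2, the leukocyte marker miR-150-5p was called lower in DN against control (-1.21, adjusted p 0.0198 in edgeR). It was also called lower in treated against control (-1.32, adjusted p 0.00746 in edgeR). Without control 2, DN 2 and DN 3, miR-155-5p and miR-124-3p were called lower in DN against control as well. In that fit miR-124-3p and miR-133a-3p were also called lower in treated against control. A single library, control 4, which was kept in that fit, was high for the lists that hold these miRNAs. Striated muscle markers summed to 292 CPM in control 4 and 89.5 CPM in the next highest control library. Neuroendocrine markers summed to 837 and 396 CPM in the same order. The part of control 4 in these calls was not tested. Of the leukocyte markers, 6 of 6 were above 0 in DN against control and 0 of 6 in treated against DN, with medians of 0.95 and -1.61. A single library, DN 2, set these signs: without it, 0 of 6 were above 0 in DN against control and 4 of 6 in treated against DN, with medians of -0.68 and 0.33. Their sum was 1472 to 2630 CPM in treated libraries apart from treated 6 at 8492 CPM. It was 1345 to 1906 CPM in DN apart from DN 2 at 23150 CPM, and 2789 to 3708 CPM in control libraries. Treated 6 also had the lowest family sum of the treated libraries, 41678 CPM. Smooth muscle, mesangial and pericyte markers, 4 entries, had 4 values above 0 in treated against DN (median 0.21) and 0 in DN against control. Both endothelial entries were above 0 in treated against DN (median 0.36). Without control 2, DN 2 and DN 3, 1 of 2 endothelial entries was above 0 there, with a median of 0.0037. The smooth muscle list kept 4 of 4 above 0 in that fit, with a median of 0.092. In treated against DN on all libraries, the median was -1.50 for the liver marker, 0.063 for striated muscle, 0.13 for red blood cell, 0.045 for neuroendocrine and 0.17 for urothelial or squamous markers. The part of these cell types in the family's values was not tested.

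The miRNAs whose levels followed the family most closely were found by the SD over 18 libraries of the log2 ratio to the mean log2 CPM of the 3p members. Among 356 mouse entries compared, the median SD was 0.61. The smallest were 0.17 for miR-27b-3p, 0.18 for miR-151-5p, 0.21 for miR-126a-3p, the endothelial marker, 0.22 for miR-29a-3p and 0.23 for miR-1843a-5p. The mean of the family's 3p arms itself had an SD of 0.35 on the log2 scale.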

How the data were processed

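Per the labels' protocols, kidney RNA was extracted with Trizol, made into TruSeq small RNA libraries and sequenced on an Illumina HiSeq, and ACGT101-miR removed adapter dimers, junk, repeats and common RNA families. Trimmomatic 0.32, BWA, SAMtools and edgeR were used, per the submitters' processing notes; the sources used here name no genome build or miRBase release. Raw values in the deposited table were estimated counts (76.9% whole), which were rounded. Its normalized columns held a signal, the authors' raw value times 1 factor per library (0.664 to 1.43), used only in an alternative. Of 1534 entries, 350 had no name (0.0136% to 0.148% of counts) and were left out.

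All 18 libraries were fitted together in edgeR 4.0.16 (R 4.3.3) with TMM factors, group as the only factor, filterByExpr (minimum count 10, minimum total 15; 619 entries) and a 2-sided quasi-likelihood test, Benjamini-Hochberg adjusted over 619 entries; the script was tested on simulated data. CPM used TMM factors, and log2 CPM a prior count of 2. Cluster and pair ratios had no test. Between replicates, chi-square per degree of freedom was at least 64.4 in all 45 pairs, so no pair agreed within sampling noise. Count-based precision covers counting error only.

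Members, lists and the naming rule (all 7 members; up to 2 entries of smallest unadjusted p per list and comparison; the 5 entries most like the family) were chosen with earlier results of these data known, and list examples were picked within that rule. Sequences and positions are from RefSeq (GRCm38.p6), and host genes from GENCODE M21. Alternatives were other scaling, filters and tools (DESeq2 1.42.0, limma 3.58.1), the replicate number as a block, subsets of groups or entries, summed names and left-out libraries. Leaving out control 2 with DN 3, the GC covariate, and the lists with repeated entries counted once or libraries left out were added after seeing the data.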

Additional observations from a re-analysis of the deposited data

Results flagged for a closer look

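Among 36 sets of 6 libraries (the 7 members, the cluster ratio, the seed ratio, the arm ratios of miR-200a and miR-200b, and the mdo-miR-429 percentage, in each group), 4 had 1 library whose gap to its nearest neighbour exceeded the 95% critical value of Dixon's test; chance gives this in about 1 of 20 groups. In DN 2, miR-200b-3p was at 6302 CPM and miR-200a-5p at 56.8 CPM, each far below the other DN libraries. In DN 3, miR-200c-3p was at 2555 CPM, far above the other DN libraries, and the log2 ratio of the AAUACUG over the AACACUG members was 0.89, also far above them.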

How the results depend on the processing

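For the 7 members in 3 comparisons, 32 alternatives gave 672 values, of which 632 kept their direction and their side of the threshold, 37 changed sign and 3 passed it, all in limma-voom. Changes of sign occurred in 13 of the 21 results, all with a small log2 fold change, and the cause was not tested. With library size only, miR-200c-3p in treated against DN was -0.019, and in treated against control miR-200b-3p was -0.056, miR-200a-5p -0.14 and miR-200b-5p -0.17. For miR-200b-5p in treated against control, RLE factors gave -0.0036 and DESeq2 -0.0037. In limma-voom, DN against control gave 0.078 for miR-200b-3p, 0.014 for miR-200a-5p and 0.089 for miR-200b-5p, and treated against control gave 0.044 for miR-200c-3p. Without control 2, DN 2 and DN 3, DN against control gave 0.079 for miR-200b-3p, 0.016 for miR-200a-5p and 0.061 for miR-200b-5p, and treated against control gave 0.084 for miR-200c-3p, or 0.089 without control 2 and DN 3. With the GC covariate, DN against control gave -0.12 for miR-200a-3p, -0.099 for miR-429-3p, -0.056 for miR-141-3p and 0.0071 for miR-200c-3p, and treated against control gave 0.32 for miR-200c-3p.

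Leaving out 1 library in turn, the range in DN against control was -0.12 to 0.10 for miR-200b-3p, -0.46 to 0.049 for miR-200c-3p, -0.17 to 0.022 for miR-200a-5p and -0.17 to 0.060 for miR-200b-5p. In treated against DN it was -0.017 to 0.38 for miR-200c-3p and -0.018 to 0.21 for miR-200b-5p, and in treated against control -0.18 to 0.15 for miR-200c-3p and -0.0097 to 0.17 for miR-200b-5p.

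The number of entries called was 0 in treated against DN under every alternative run. In DN against control it was 0 in edgeR, 2 with a filter of 10 CPM in 6 libraries, 4 in DESeq2, 91 in limma-voom, 51 without control 2, DN 2 and DN 3, 1 without control 2 and DN 3, and 0 to 6 when 1 library was left out, with 6 reached without DN 2 or without DN 3. In treated against control it was 0 in edgeR, 24 in DESeq2, 106 in limma-voom, 56 with only those groups, 50 without control 2, DN 2 and DN 3, 3 without control 2 and DN 3, and 0 to 7 when 1 library was left out, with 7 reached without DN 2.

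Same-numbered libraries did not pair: their deviations correlated by -0.33 to 0.26, and no library correlated best with its own number. With the replicate number as a block, 0 entries were called in each comparison, and miR-141-3p in treated against control was 0.94. Differences in the cluster ratio moved by less than 1 SD, pooled over the libraries of both groups, in every alternative run. That SD was larger than each main difference, so this does not show that the differences were stable. Changes of sign are given above for treated minus DN and DN minus control. Depth limited the 5p arm of miR-200c, at 0 in 16 of 18 libraries, where a count of 0 allows up to 3 counts.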

Other observations

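Entries named for other species carried further counts of the family. An entry named mdo-miR-429, after the opossum, held 637 to 1203 counts in treated, 139 to 999 in DN and 86 to 773 in control libraries. As a percentage of the counts of miR-429-3p, it was 0.758 in control 2 and 1.60 in DN 3, and 3.10 to 6.59 in the others. The entry hsa-miR-141-3p, named after the human miRNA, held 8 to 60 counts in treated, 10 to 24 in DN and 6 to 17 in control libraries.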
